A study of Mus musculus with 3 samples.

Results

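The cadherin superfamily was followed in the transcript levels of sorted olfactory cells from mice that overexpress Tet3 and of sorted mature olfactory sensory neurons. Members were taken by gene name: cadherins (Cdh), clustered protocadherins (Pcdha, Pcdhb, Pcdhg), other protocadherins (Pcdh), and the Celsr, Fat, Dachsous and calsyntenin (Clstn) genes. They were chosen with earlier results of these data known. Of 34617 gene rows, 71 matched, made up of 25 clustered protocadherins, 12 other protocadherins and 34 cadherins, Celsr, Fat, Dachsous and calsyntenin genes.

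The O/Tet3 library came from cells of the main olfactory epithelium of 4-week-old FVB mice carrying OMP-tTA, a transactivator driven from the olfactory marker protein gene, and a tetO-Tet3-GFP transgene, which it switches on. The mOSN library came from EGFP-positive cells of the same tissue in 4-week-old C57BL/6J mice with an EGFP reporter placed behind Omp (OMP-ires-EGFP). Both were libraries of total RNA of sorted cells depleted of ribosomal RNA, and each group had 1 library. Genotype, strain and library therefore cannot be told apart, no test between the groups was possible, and all differences describe these 2 libraries only. The sources used here give neither the number of animals behind a library nor the gate of the sort.

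Cadherins are membrane proteins that hold cells together through calcium-binding extracellular repeats. Classical cadherins pull neighbouring cells into adherens junctions through catenins. Clustered protocadherins are made from arrays of alternative promoters, of which each neuron uses a few, so that neighbouring axons carry different surface combinations and recognise their own branches. Choice among these promoters goes with CTCF binding and with DNA methylation of the promoter. In olfactory sensory neurons, clustered and delta protocadherins are known for their part in the sorting of axons into glomeruli of the olfactory bulb.

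The deposited values scale with gene length: multiplied by gene length, most low values of odorant receptor genes (77.6% of 183 in O/Tet3 and 84.5% of 103 in mOSN) fell within 0.1 of steps that put 1 read in a gene of 1 kb at 0.0471 in O/Tet3 and 0.0249 in mOSN. A given value in the O/Tet3 library thus rests on 1.89-fold fewer reads. The transgene was seen in the library labelled with it, since Tet3 stood at 145 in O/Tet3 and 3.72 in mOSN. Omp, the marker gene of mature neurons, stood at 139 in O/Tet3 and 298 in mOSN. A row was compared when its value reached 1 in either library. It was called higher or lower when log2(value + 1) differed by at least 1 between the libraries, O/Tet3 minus mOSN. Over all 12943 compared rows, 16.5% were called higher and 12.0% lower in O/Tet3, and the median log2 difference was 0.21.

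Of the 71 members, 36 were compared, 2 were called higher, 8 lower and 26 neither. The members called higher were Fat1 and Pcdh10. Those called lower were Cdh23, Pcdhb1, Clstn1, Pcdh17, Pcdh19, Clstn2, Celsr2 and Pcdh8. Against the 16.5% and 12.0% of all rows, fewer of the compared members were called higher and more were called lower. Among the 36, 3 were compared through their O/Tet3 value alone and 4 through their mOSN value alone, so that these 7 had to differ between the libraries. Cdh23, Celsr2 and Pcdh8, all called lower, were among the 4, so the floor fixed their direction. The larger share called lower rests in part on them. Neither Fat1 nor Pcdh10 was among the 7. Of the 35 members not compared, 3 were listed at 0 in both libraries, 6 were listed at 0 in O/Tet3 alone, and the highest value of any was 0.914. On the values themselves, 7 of the 36 were higher and 10 lower by 2-fold or more, against 24.0% and 13.1% of the compared rows above 0 in both libraries. An exact 0 in such a table can be a failed estimate, and no fold is given against it.

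**Figure D1:**
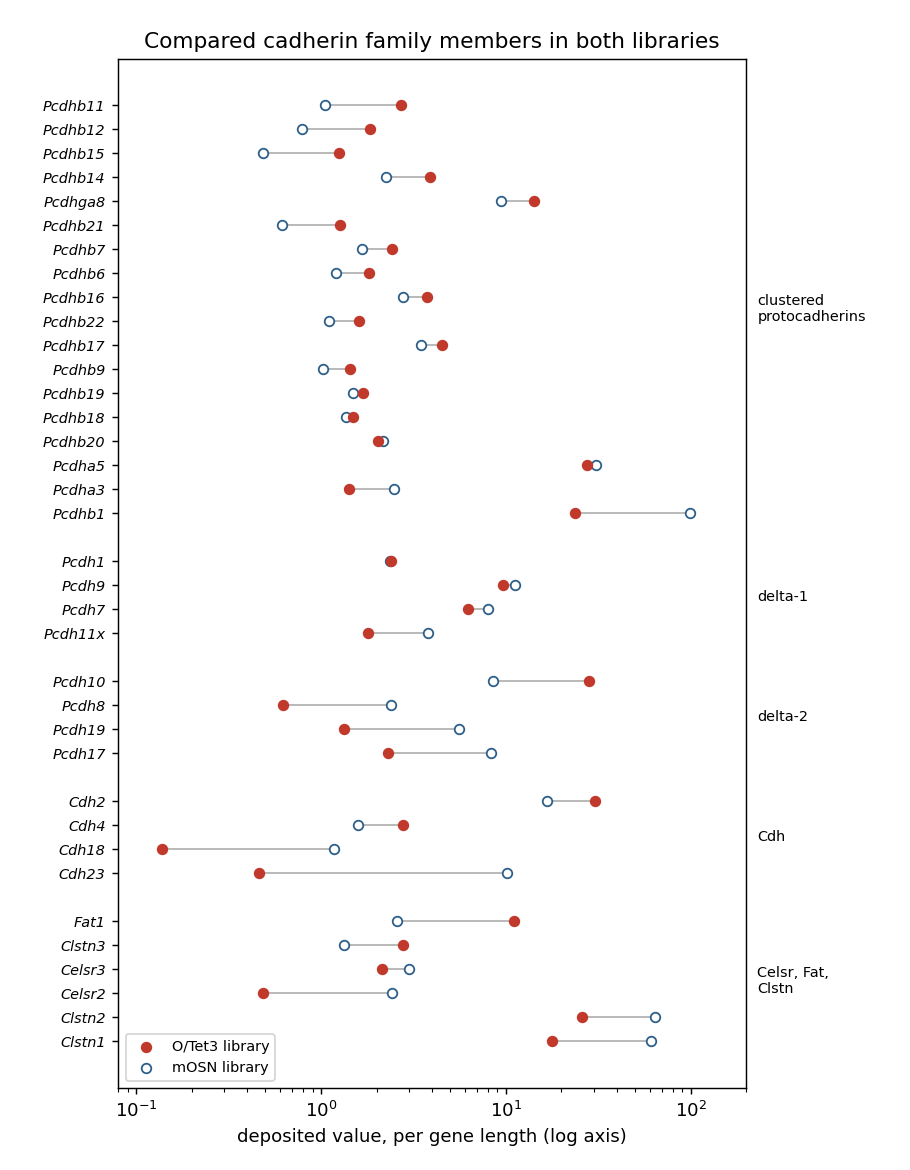
Deposited values (log axis) of the 36 compared members in the O/Tet3 library (filled red) and the mOSN library (open blue), 1 library each, ordered by difference within each family. Most clustered protocadherins have the O/Tet3 point to the right of the mOSN point, while Pcdhb1, 3 of the delta-2 protocadherins, Cdh23 and 2 calsyntenins have it well to the left.

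The clustered protocadherins went different ways, with Pcdhb1 apart from the rest of its array. Pcdhb1, the first gene of the beta array and encoded, like its neighbours, by a single large exon, stood at 23.8 in O/Tet3 and 99.3 in mOSN, 4.18-fold lower (log2 difference of value + 1, −2.02). It was the highest of all 71 members in mOSN, but in O/Tet3 it stood below Cdh2, Pcdh10, Pcdha5 and Clstn2. By gene length, these values rest on about 1238 reads in O/Tet3 and 9785 in mOSN. Pcdhb1 alone held 39.3% of the summed value of the 22 Pcdhb genes in O/Tet3 and 80.5% in mOSN. It exceeded the next highest Pcdhb gene, Pcdhb17 in either library, 5.28-fold in O/Tet3 and 28.7-fold in mOSN.

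The other 21 beta genes were low and mostly higher in the O/Tet3 library. Of Pcdhb2 to Pcdhb22, 20 had the higher value in O/Tet3, where 59.9% of all rows above 0 in both libraries did. The exception was Pcdhb20, at 2.04 in O/Tet3 and 2.18 in mOSN. Their summed value was 36.7 in O/Tet3 and 23.99 in mOSN, 1.53-fold higher, and the fold of the values ran from 0.939 to 6.91 with a median of 1.48. Of the 14 that were compared, 0 were called at the threshold on value + 1, which a low gene reaches only with a large fold. On the values themselves 8 of the 21 were at least 2-fold higher, against 25.7% of all rows above 0 in both libraries.

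The largest folds were in the genes lowest in mOSN. The mOSN value is the divisor of the fold, so a low value there raises the fold by itself. Pcdhb8 stood at 0.596 in O/Tet3 and 0.0862 in mOSN, which is about 30 and 8 reads, 6.91-fold higher with a 95% exact interval of 3.17 to 17.9 for counting error. Pcdhb2 stood at 0.798 in O/Tet3 and 0.136 in mOSN, about 47 and 15 reads, 5.87-fold higher with an interval of 3.25 to 11.4. Counting error is the only error these intervals cover; they leave out PCR duplication and the spread between animals. Over the 21 genes, the interval lay above 1 for 15 and below 1 for 0. For 9 it lay above 1.23, the median fold of all compared rows above 0 in both libraries. Intervals were made for the Pcdhb genes alone, so no share of all rows stands beside these counts.

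Along the array, taken in RefSeq gene order, the fold varied from gene to gene, with Pcdhb2 and Pcdhb8 far above their neighbours. Pcdhb10 to Pcdhb15 had folds of 1.73 to 2.59, with Pcdhb11 at 2.72 in O/Tet3 and 1.05 in mOSN, and Pcdhb12 at 1.84 in O/Tet3 and 0.793 in mOSN. The next genes, Pcdhb16 to Pcdhb20, had folds of 0.939 to 1.35, with Pcdhb17 at 4.50 in O/Tet3 and 3.46 in mOSN. These blocks were picked after their values were seen. The 8 genes with at least 2-fold higher values were at 0.0862 to 1.05 in mOSN and the other 13 at 0.352 to 3.46. That split too sets the fold against its own divisor. The highest of all 21 was 8.63-fold above the lowest in O/Tet3 and 40.2-fold above it in mOSN. The wider range in mOSN rests on Pcdhb8 and Pcdhb2, since the next lowest gene there was Pcdhb3, at 0.352. The 13 genes, which include Pcdhb3 and Pcdhb17, spanned 8.63-fold in O/Tet3 and 9.84-fold in mOSN. They were set apart by a fold under 2, which favours like ranges. The order of the 21 genes was alike in both libraries (Spearman rho 0.89 across genes, which share an array, sequence and libraries and are not replicates). Beta protocadherins are close paralogs, and the sources used here do not say how reads that match several of them were placed, so single values are uncertain.

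**Figure D2:**
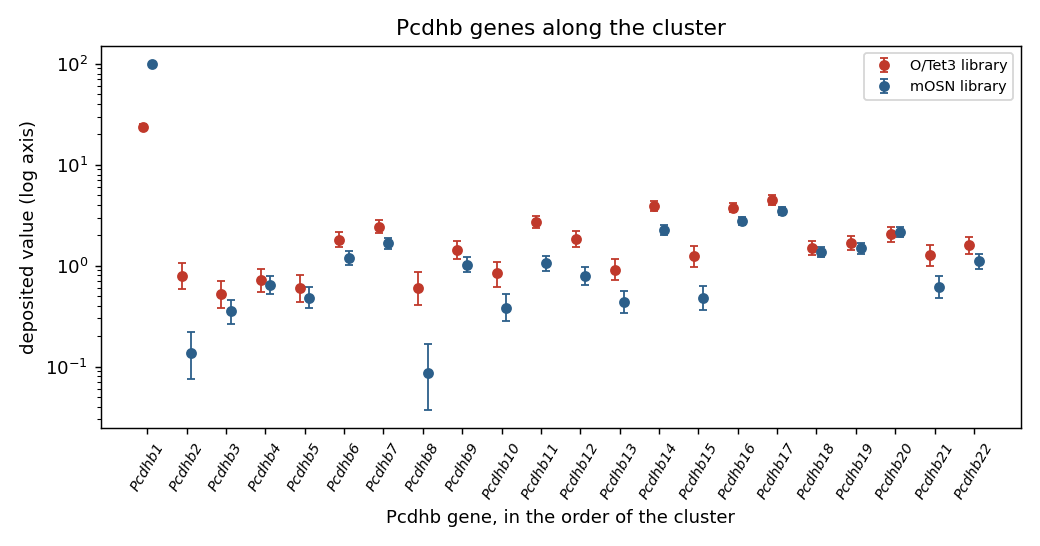
Deposited value (log axis) of the 22 Pcdhb genes in their order along the array, with the O/Tet3 library in red and the mOSN library in blue, and bars for the exact 95% interval of counting error at the estimated reads. Pcdhb1 is the highest in both series, at 23.8 in O/Tet3 and 99.3 in mOSN, while 20 of the other 21 genes have the O/Tet3 point above the mOSN point.

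The alpha and gamma arrays were represented by Pcdha3, Pcdha5 and Pcdhga8. Isoforms of an array share constant exons, so such a row may hold reads of several isoforms. Pcdha5 stood at 27.4 in O/Tet3 and 30.6 in mOSN, and Pcdha3 at 1.42 in O/Tet3 and 2.47 in mOSN. Pcdhga8 stood at 14.1 in O/Tet3 and 9.43 in mOSN, 1.5-fold higher. None of the 3 was called. Over all 25 clustered genes the median log2 difference was 0.33. Over the 18 compared it was 0.32, where the median of all compared rows was 0.21. Of the 25 genes, 22 are Pcdhb genes, so these medians mostly describe the beta array, and both alpha rows were lower in O/Tet3. The summed value of the 25 was 103 in O/Tet3 and 166 in mOSN, 1.60-fold lower, but without Pcdhb1 it was 79.7 in O/Tet3 and 66.5 in mOSN, 1.20-fold higher.

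The other protocadherins were mostly lower in O/Tet3, unlike the beta array. Of these 12, 8 were compared, 1 was called higher and 3 lower, and their median log2 difference was −0.55, or −0.15 over all 12. Of the compared genes, 2 of 8 had the higher value in O/Tet3, against 14 of 18 compared clustered genes and 60.5% of all compared rows. These counts include Pcdh8, compared through mOSN alone, and 3 clustered genes compared through O/Tet3 alone, whose directions the floor fixed. Without the floor, 2 of the 12 and 21 of the 25 were higher in O/Tet3, as were 12295 of all 34617 rows. Of all rows, 11757 were listed at 0 in both libraries, as was Pcdh18, and could not be higher. Of the rows above 0 in both libraries, 59.9% were higher. Pcdh12, Pcdh15 and Pcdh20, also among the 12, were under 0.1 in both libraries. With 1 library a group the difference between the 2 kinds of protocadherin was not tested.

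All called genes of this kind were delta-2 protocadherins, a subgroup with a cytoplasmic tail that recruits actin regulators. Pcdh17 stood at 2.29 in O/Tet3 and 8.36 in mOSN, 3.64-fold lower (log2 difference −1.51). Pcdh19, an X-linked gene whose loss in people is known as a cause of epilepsy, stood at 1.34 in O/Tet3 and 5.57 in mOSN, 4.16-fold lower (−1.49). Pcdh8, which is known for internalising N-cadherin at synapses, stood at 0.627 in O/Tet3 and 2.39 in mOSN, 3.82-fold lower, and its log2 difference of −1.06 was just inside the threshold. Pcdh8 was compared through mOSN alone, which fixed its direction. Pcdh10, which organises axon growth and whose level varies among glomeruli, went the other way, to 28.2 in O/Tet3 against 8.51 in mOSN, 3.32-fold higher (log2 difference 1.62). So 4 of the 5 delta-2 genes were compared and called, in both directions, and the fifth, Pcdh18, was listed at 0 in both libraries. Of all compared rows, 16.5% were called higher and 12.0% lower. At 3-fold of value + 1, Pcdh10 was still higher and 0 of the other protocadherins were lower.

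Of the delta-2 genes called lower, Pcdh17 and Pcdh8 were taken here and Pcdh19 was not. Sequences upstream of 3 called delta-2 genes are given to set the promoter of the higher gene beside those of 2 lower ones. They are the 250 bases before the RefSeq start site (GRCm38.p6, which is not the build named for the values), written 5′ to 3′ on the gene's strand with each CpG, the dinucleotide that Tet enzymes act on, in capitals. Pcdh10 lies at chr3:45378148-45378397 on the plus strand, Pcdh17 at chr14:84443313-84443562 on the plus strand and Pcdh8 at chr14:79771313-79771562 on the minus strand.
Pcdh10: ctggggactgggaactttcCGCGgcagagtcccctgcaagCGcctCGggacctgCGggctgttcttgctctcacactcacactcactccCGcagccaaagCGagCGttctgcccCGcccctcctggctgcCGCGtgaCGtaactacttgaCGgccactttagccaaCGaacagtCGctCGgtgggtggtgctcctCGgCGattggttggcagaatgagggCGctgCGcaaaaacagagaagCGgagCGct
Pcdh17: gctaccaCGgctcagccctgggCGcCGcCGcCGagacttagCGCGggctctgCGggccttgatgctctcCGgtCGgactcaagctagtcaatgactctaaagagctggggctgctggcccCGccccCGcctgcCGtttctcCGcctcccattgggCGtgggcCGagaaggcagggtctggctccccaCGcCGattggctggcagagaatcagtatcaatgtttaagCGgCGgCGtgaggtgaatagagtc
Pcdh8: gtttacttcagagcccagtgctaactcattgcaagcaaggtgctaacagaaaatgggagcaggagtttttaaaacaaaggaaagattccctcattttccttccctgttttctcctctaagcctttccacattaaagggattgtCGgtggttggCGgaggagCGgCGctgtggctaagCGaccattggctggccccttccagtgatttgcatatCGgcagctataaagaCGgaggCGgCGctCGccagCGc
The Pcdh10 window held 22 CpGs, the Pcdh17 window 21 and the Pcdh8 window 11, where the median of 32851 RefSeq windows of the same length was 6 and the middle 50% ran from 2 to 16. Pcdh10, higher in O/Tet3, and Pcdh17, lower, had nearly the same number. Whether the number of CpGs goes with the direction was not tested. TAATTA, a homeodomain core that reads the same on both strands, occurred in 0 of the 3 windows, and 4.84% of all windows hold it. No methylation or binding was measured at these windows here.

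The delta-1 protocadherins, which carry a longer tail that binds a phosphatase, were closer between the libraries. Pcdh9 stood at 9.65 in O/Tet3 and 11.2 in mOSN, and Pcdh7 at 6.24 in O/Tet3 and 8.06 in mOSN. Pcdh1 was nearly equal, at 2.40 in O/Tet3 and 2.36 in mOSN. Pcdh11x, at 1.79 in O/Tet3 and 3.80 in mOSN, had the largest difference of the 4, 2.12-fold lower in its values and not called (log2 difference −0.78). Of the rest, Pcdh12 and Pcdh15 were under 0.1 in both libraries and Pcdh20 was listed at 0 in O/Tet3, against 0.045 in mOSN. The summed value of the 12 genes was 52.6 in O/Tet3 and 50.4 in mOSN, with 28.2 of the O/Tet3 sum in Pcdh10 alone.

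**Figure D3:**
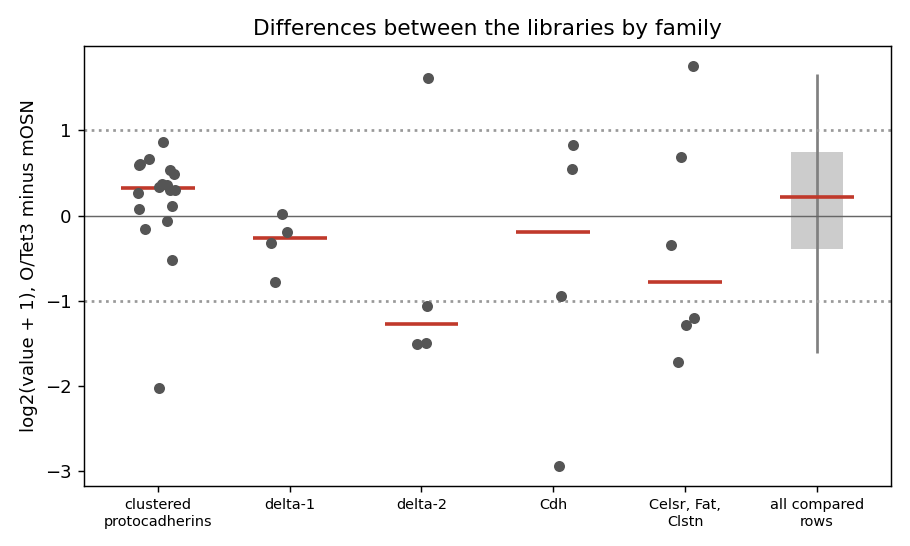
Log2(value + 1), O/Tet3 minus mOSN, of each compared member by family (points), with the family median (red line) and the threshold of 1 in either direction (dotted). For all 12943 compared rows the box spans the middle 50% and the line the 5th to 95th percentile; Pcdhb1 at −2.02, Clstn1 at −1.72 and Cdh23 at −2.94 lie below that range, Fat1 at 1.76 lies above it, and Pcdh17, Pcdh19 and Pcdh8 lie between −1.51 and −1.06.

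Among the Cdh genes, 1 was called, and it showed the largest difference of all members. Cdh23, a long cadherin best known from the tip links of hair cells, stood at 0.462 in O/Tet3 and 10.2 in mOSN, 22.1-fold lower (log2 difference −2.94). Of the 12943 compared rows, it was number 130 from the lowest. Cdh18, a type II classical cadherin of neurons, stood at 0.137 in O/Tet3 and 1.18 in mOSN, 8.61-fold lower in its values, and at −0.94 lay just outside the threshold on value + 1. Both passed the floor through mOSN alone.

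Cdh2 and Cdh4, classical type I cadherins, had higher values in O/Tet3, while the other 3 genes of that type had lower ones. Cdh2, N-cadherin, stood at 30.5 in O/Tet3 and 16.8 in mOSN, 1.82-fold higher and the highest member in O/Tet3. Cdh4, R-cadherin, stood at 2.76 in O/Tet3 and 1.58 in mOSN, 1.75-fold higher. Neither was called (log2 differences 0.83 and 0.54). The remaining 19 of the 23 Cdh genes were under 1 in both libraries. These include E-cadherin (Cdh1) of epithelia, at 0.414 in O/Tet3 and 0.441 in mOSN, P-cadherin (Cdh3), at 0.114 in O/Tet3 and 0.543 in mOSN, Cdh15, at 0.0510 in O/Tet3 and 0.548 in mOSN, and VE-cadherin (Cdh5) of endothelium, listed at 0 in both.

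The calsyntenins, cadherin-like proteins that tether cargo to kinesin and act at synapses, held, in mOSN, the largest summed value after the clustered genes. Clstn1 stood at 17.8 in O/Tet3 and 61.2 in mOSN, 3.43-fold lower (log2 difference −1.72). Clstn2 stood at 25.8 in O/Tet3 and 64.4 in mOSN, 2.50-fold lower (−1.29). Clstn3 differed in the other direction, at 2.77 in O/Tet3 and 1.33 in mOSN, 2.08-fold higher in its values and not called. The sum of the 3 was 46.4 in O/Tet3 and 127 in mOSN, 2.73-fold lower.

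Celsr and Fat genes, large cadherins of planar polarity and tissue growth, split as well. Celsr2 stood at 0.484 in O/Tet3 and 2.42 in mOSN, 5.01-fold lower (log2 difference −1.21), and was compared through mOSN alone. Celsr3, known for guiding axon tracts, stood at 2.14 in O/Tet3 and 2.98 in mOSN and was not called. Fat1, a giant cadherin of cell contacts and polarity, stood at 11.1 in O/Tet3 and 2.58 in mOSN, 4.30-fold higher (log2 difference 1.76), the largest of the higher members. Celsr1, Fat2, Fat3, Fat4 and Dchs1 were under 0.2 in both libraries.

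Genes that work with the cadherins are given by list, beside the 16.5% higher and 12.0% lower of all compared rows. Of 12 compared catenins and junction proteins, 1 was called higher, 1 lower and 10 neither, with a median log2 difference of −0.09. Beta-catenin (Ctnnb1) stood at 15.8 in O/Tet3 and 6.97 in mOSN (log2 difference 1.08), while the junction scaffold afadin (Mllt4) stood at 9.22 in O/Tet3 and 24.3 in mOSN (−1.31). Of 11 compared factors that act at clustered protocadherin promoters, 0 were called, and their median log2 difference was 0.32. Among them CTCF (Ctcf) stood at 29.0 in O/Tet3 and 21.8 in mOSN, the cohesin subunit Rad21 at 40.6 in O/Tet3 and 32.7 in mOSN, and Smchd1, a silencing factor of the clusters, at 9.04 in O/Tet3 and 5.94 in mOSN. Stag2, another cohesin subunit, had the largest difference of the 11, at 127 in O/Tet3 and 85.2 in mOSN (log2 difference 0.57).

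Of 12 genes that act downstream of protocadherins, 3 were called higher and 0 lower, and the median was 0.12. Marcks, a membrane protein that binds actin, stood at 32.5 in O/Tet3 and 3.57 in mOSN (log2 difference 2.87). The GTPase Rac1 stood at 16.8 in O/Tet3 and 7.22 in mOSN (1.11). The kinase Ptk2b stood at 4.19 in O/Tet3 and 0.993 in mOSN (1.38) and was compared through O/Tet3 alone, which fixed its direction. Of 7 planar polarity partners of Celsr and Fat, Ankrd6 alone was called, higher at 2.70 in O/Tet3 and 0.628 in mOSN (median 0.14). Fzd6 stood at 1.83 in O/Tet3 and 0.470 in mOSN and was not called (log2 difference 0.94). Ankrd6 and Fzd6 were compared through O/Tet3 alone, which fixed their direction. Fzd3, which acts with Celsr3, stood at 7.78 in O/Tet3 and 11.7 in mOSN. Of 16 proteases and partners of calsyntenins, 2 were called higher and 3 lower (median −0.18). The higher ones were the kinesin heavy chain Kif5c, at 38.9 in O/Tet3 and 15.8 in mOSN, and the gamma-secretase subunit Psenen, at 37.8 in O/Tet3 and 16.3 in mOSN. The lower ones were Apba1, at 3.10 in O/Tet3 and 14.0 in mOSN, App, at 53.0 in O/Tet3 and 124 in mOSN, and the kinesin light chain Klc2, at 11.2 in O/Tet3 and 25.3 in mOSN. Klc1, the light chain that binds calsyntenin, was near equal, at 68.0 in O/Tet3 and 73.3 in mOSN.

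Cell markers also differed between the libraries, in both directions. Of 10 markers of mature olfactory neurons, 9 were called lower (median −2.01), and their summed value was 725 in O/Tet3 and 3138 in mOSN. Of 10 markers of immature neurons, 4 were called higher and 1 lower (median 0.73), and they split. Their sum was 211 in O/Tet3 and 188 in mOSN. Called higher were Gap43, at 34.8 in O/Tet3 and 6.41 in mOSN, and Stmn1, at 34.7 in O/Tet3 and 6.72 in mOSN. So were Dpysl3, at 8.22 in O/Tet3 and 3.23 in mOSN, and Sox11, at 6.05 in O/Tet3 and 0.383 in mOSN. Gng8 and Stmn2 had higher O/Tet3 values without being called. Sox11 and Gng8 were compared through O/Tet3 alone, which fixed their direction. Dpysl5, the one called lower, stood at 1.46 in O/Tet3 and 7.98 in mOSN. Ncam1, at 51.7 in O/Tet3 and 82.7 in mOSN, Dcx, at 19.1 in O/Tet3 and 29.0 in mOSN, and Tubb3, at 13.7 in O/Tet3 and 23.6 in mOSN, had lower O/Tet3 values without being called. For 8 sustentacular markers (7 above 0 in O/Tet3 and 8 in mOSN) the sum was 8.50 in O/Tet3 and 23.3 in mOSN. Most of that gap was Ugt2a1, called lower at 2.53 in O/Tet3 and 15.6 in mOSN, and without it the sum was 5.97 in O/Tet3 and 7.72 in mOSN. For 6 markers of ensheathing glia (3 above 0 in O/Tet3 and 6 in mOSN) the sum was 5.60 in O/Tet3 and 14.8 in mOSN. Without Fabp7 the sum was 5.54 in O/Tet3 and 9.98 in mOSN. Fabp7, called lower at 0.061 in O/Tet3 and 4.78 in mOSN, was compared through mOSN alone, which fixed its direction. Sox10, S100b and Frzb were listed at 0 in O/Tet3. The 6 markers of respiratory epithelium summed to 134 in O/Tet3 and 79.2 in mOSN, but to 59.9 in O/Tet3 and 54.6 in mOSN without Dynlrb2. Dynlrb2 and Epcam were higher and the other 4 lower (median log2 difference −0.62). The 8 blood and immune markers summed to 40.5 in O/Tet3 and 61.0 in mOSN, but to 19.4 in O/Tet3 and 21.1 in mOSN without the haemoglobin gene Hba-a2. The 8 basal, gland and microvillous markers summed to 4.88 in O/Tet3 and 4.30 in mOSN. Without Pou2f3 they summed to 1.98 in O/Tet3 and 3.72 in mOSN. Pou2f3, called higher at 2.90 in O/Tet3 and 0.582 in mOSN, was compared through O/Tet3 alone, which fixed its direction. Krt5, Krt14, Trp63, Ascl3 and Cftr of that list were listed at 0 in O/Tet3. Ascl3, at 1.58 in mOSN, and Cftr, at 1.02 in mOSN, passed the fold for a lower call only against that 0, which can be a failed estimate. The 7 progenitor markers summed to 35.7 in O/Tet3 and 19.8 in mOSN, nearly all from Pcna. Endothelial markers were low, with a sum of 1.97 in O/Tet3 and 1.45 in mOSN and Cdh5, Cldn5 and Emcn listed at 0 in both, and 6 fibroblast markers summed to 0.406 in O/Tet3 and 0.522 in mOSN. The part of these cells in the members' differences was not tested, and in sorted bulk samples fewer cells of a type and less RNA per cell cannot be told apart.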

How the data were processed

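RNA of 2 libraries was analysed, and the third sample, immunoprecipitated DNA, was not used. Per the labels' protocols, RNA of sorted cells went through 2 rounds of RiboMinus depletion and the ScriptSeq kit, with 16 cycles of amplification. Cuffdiff, Bowtie and Bowtie2 and the genome build mm9 were used by the authors, per the submitters' processing notes, which give no roles or versions. Annotation and strand setting are not given in the sources used here, so overlapping, antisense and near-identical genes could not be separated. The authors deposited log2 values for 34617 gene rows; the form is log2(value + 1), judged from the numbers, since the lowest is 0 and 99.3% of the O/Tet3 and 99.4% of the mOSN values above 0.01 return to numbers of at most 6 digits. The deposited log2 ratio column is O/Tet3 minus mOSN within 8.0e-14.

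Column names, short forms of the genotypes, gave the samples. Log2 differences use a pseudocount of 1, which understates low genes; folds are ratios of values. The value of 1 read was found from odorant receptors of 0.85 to 1.1 kb (RefSeq gene length, GRCm38.p6), for which 77.6% of 183 low O/Tet3 values and 84.5% of 103 low mOSN values came within 0.1 of a whole number of reads. Reads of the single-exon Pcdhb genes follow from it as estimates, with exact 95% intervals. Total depth is not known. The calls were tried on simulated counts of genes at 5 or more in mOSN, with fold changes above the threshold and counting error only. The read steps were tried on simulated counts in genes of receptor length. Such trials check the code and do not show how the calls perform for low members or with spread between animals. Members with a value of at least 5 or a call are named, and of each partner list up to 3 genes by size of difference; Ctcf, Rad21, Psenen, Klc1, Klc2, the markers named with values and members named at lower values were added after their values were seen. Members, lists and tests were chosen with earlier results of these data known. Python 3.11.15, pandas 2.3.3, numpy 2.4.6 and scipy 1.17.1 were used.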

Additional observations from a re-analysis of the deposited data

How the results depend on the processing

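A median was counted as moved at a difference of 0.1, a single log2 ratio at 0.5 and a count at more than 1.5 times. Of 84 values of the main results under the alternatives, 56 stayed within these bounds, 24 moved and 4 reversed. With a pseudocount of 0.1, 6 members were higher, 3 of them clustered and 2 outside the protocadherins, and the medians were 0.47 for clustered, −0.70 for other protocadherins and −0.89 for the remaining members. With 2-fold of the values themselves (chosen after seeing the data), 7 were higher, 4 clustered and 2 outside the protocadherins, and the medians were 0.50, −0.73 and −0.90. A floor of 5 gave −0.16, −0.32 and −1.29. It leaves Pcdhb1 (−2.02), Pcdha5 (−0.16) and Pcdhga8 (0.54) as the clustered genes, and their median has the opposite sign. The positive clustered median thus depends on the clustered genes under 5. With no floor the medians were −0.15 for other protocadherins and −0.038 for the remaining members. Centring on 0.21, the median of the 9934 rows that reached 1 in O/Tet3 and in mOSN, gave 0.11, −0.76 and −0.85. At 3-fold, 3 members were lower, 2 of them outside the protocadherins and 0 among the other protocadherins. Without Pcdhb1 (chosen after seeing the data), 0 clustered genes were lower. The summed clustered value, O/Tet3 over mOSN, was 0.624, but 1.20 without Pcdhb1 and 0.541 after division by the shift of those rows. That of the other protocadherins was 1.04, but 0.582 without Pcdh10 and 0.904 after that division. Of 45 single-gene ratios, 7 moved and 0 reversed. No paired analysis was possible because there is only 1 library in each group. Fewer reads per value in O/Tet3 limit what can be said of the members under 0.2.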
